A study of Mus musculus with 28 samples.

Results

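The collagen genes of the ventricular myocardium were examined, taken as every gene whose symbol is Col, a number, a and a number. The rule found 44 of the 45513 gene rows. It left out Col4a3bp, which encodes a lipid transfer protein. Of the 44, 43 had counts high enough to be tested, and Col9a1, with 84 counts in all 28 libraries together, had not. They were grouped by type number into 11 fibrillar genes, 6 genes of the basement membrane collagen type IV, 6 genes of the beaded filament collagen type VI, 3 genes of types VIII and X, Col7a1 of the anchoring fibrils, 9 genes of the fibril-associated collagens (FACIT), 2 multiplexins, 4 transmembrane collagens and 2 genes of types XXVI and XXVIII. The tissue came from male adult C57BL/6 mice, and each library is 1 mouse. At 6 weeks of age the mice had 5/6 nephrectomy, which removes most renal tissue and induces chronic kidney disease (CKD), or a sham operation. On day 7 they were gavaged with the oxalate-degrading gut bacterium Oxalobacter formigenes (Oxf) or with 200 µl of culture medium alone (vehicle). All mice ate food with 1% added hydroxyproline, a precursor of oxalate, and 0.5% calcium, so no group stands for an ordinary diet. This gave 10 sham-vehicle, 5 sham-Oxf, 6 CKD-vehicle and 7 CKD-Oxf hearts in 4 groups. The design names 10 mice in each, and the others were not analysed here. The series is about colonization with the bacterium and remodelling of the heart in CKD, of which extracellular matrix is one component.

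Collagens are trimers of alpha chains that wind into a triple helix. In the heart, fibrillar types I, III and V are made mainly by fibroblasts and build the fibres between muscle bundles, and a rise of these fibres is the hallmark of fibrosis. Type IV chains form the sheet-like network of the basement membrane around cardiomyocytes and capillaries, type VI forms beaded microfilaments next to it, and the multiplexins types XV and XVIII carry glycosaminoglycan chains and link basement membranes to the stroma.

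The libraries held 19.8 M to 65.4 M counts, and 0.0966% to 0.358% of these fell on the 44 collagen genes. The mean share in sham hearts was 0.199 ± 0.0681% with vehicle (SD, n = 10) and 0.184 ± 0.0315% with Oxf (n = 5), and in CKD hearts 0.176 ± 0.0238% with vehicle (n = 6) and 0.172 ± 0.0282% with Oxf (n = 7), so the group means lay closer together than the libraries of sham-vehicle. Replicate 1 of sham-Oxf stood apart: it had the fewest counts, 15879 genes with a count against at least 27128 in each other library, and a count for 31 of the 44 collagens against 41 to 44 elsewhere. The 7SL RNA genes Rn7s1 and Rn7s2, of the particle that guides ribosomes to the endoplasmic reticulum, accounted for 1.83% to 21.0% of counts. Their mean share in sham hearts was 9.78 ± 5.24% with vehicle (SD) and 4.14 ± 3.52% with Oxf. In CKD hearts it was 13.6 ± 6.80% with vehicle and 8.81 ± 6.26% with Oxf. Cardiomyocyte markers such as Myh6 and Tnnt2 were high in every library (6 markers, summed level 16776 to 42786 CPM), which matches heart muscle. The 5 atrial markers, such as Myl7 and Sln, summed to 205 to 2775 CPM in sham-vehicle (median 1310) and 62.8 to 2068 in sham-Oxf (907). In CKD hearts they summed to 1056 to 2583 CPM with vehicle (2145) and 101 to 1975 with Oxf (1238). The part of atrial tissue in the collagen values was not tested. Levels are given as CPM, counts scaled to a common library size with TMM factors, and per kb of exon where genes are compared with each other. In bulk tissue, fewer cells of a type and less RNA per cell cannot be told apart. The p-values of the fits set a difference between group means against the spread between mice. The groups hold separate runs of the mouse numbers in the labels. A difference that goes with number order therefore cannot be told apart from one between groups.

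Type IV collagen led the collagen transcripts of these hearts. In sham-vehicle, Col4a1 (chromosome 8, 11198423 to 11312826, minus strand, GRCm38) held 59.3 ± 17.2 CPM per kb (SD, n = 10) and Col4a2 (chromosome 8, 11312805 to 11449287, plus strand) 51.0 ± 13.0 CPM per kb. Their chains form the common trimer of the basement membrane network. Col3a1, the fibrillar chain of reticular fibres (chromosome 1, 45311538 to 45349706, plus strand), came next at 18.4 ± 7.64 CPM per kb, and its range overlapped those of the genes that followed: Col15a1 (16.4 ± 3.19), Col6a1 (14.6 ± 2.08) and Col1a1 (14.6 ± 6.30). Col5a1, a chain of the type V collagen that nucleates fibrils, had 10.4 ± 2.39 CPM per kb, Col1a2 9.04 ± 2.94 and Col6a2 8.0019 ± 1.53. At the low end were cartilage and rarely used chains: Col2a1, the main fibrillar collagen of cartilage, had 0.0142 CPM per kb, Col9a1 0.0171 and Col6a4 0.0127. The 6 type IV genes took 46.3 ± 7.81% of the collagen counts in sham hearts with vehicle and 47.7 ± 8.48% with Oxf, and 48.7 ± 5.21% in CKD hearts with vehicle and 49.7 ± 7.78% with Oxf (SD over libraries).

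**Figure D1:**
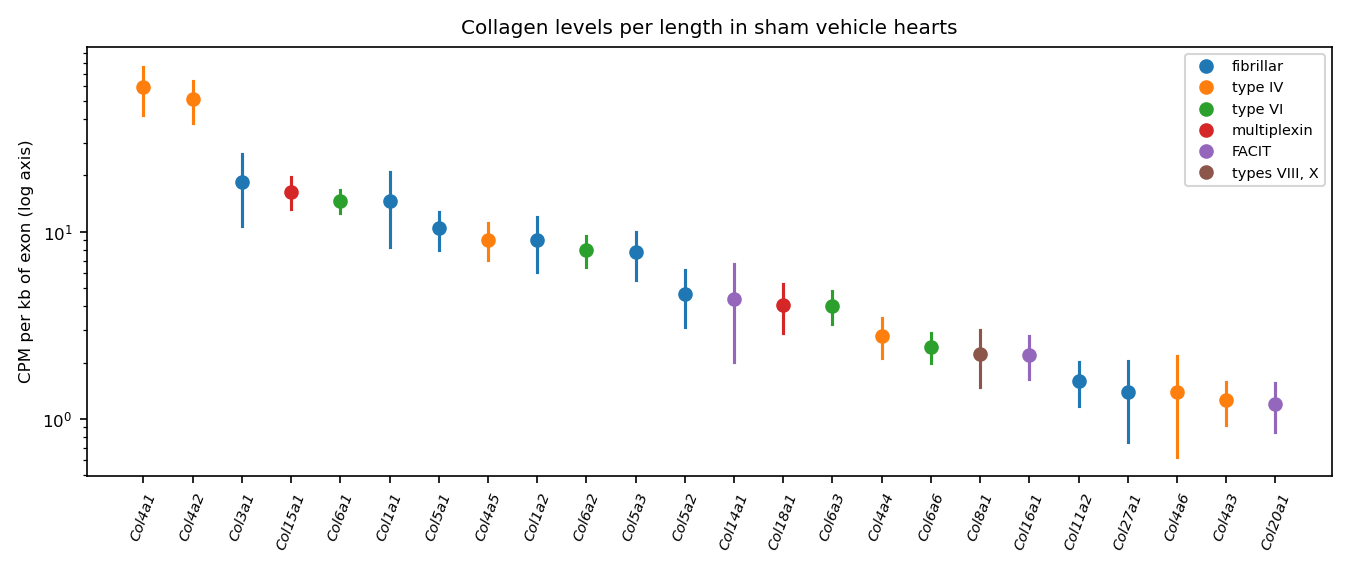
Level of each collagen gene with at least 1 CPM per kb in sham-vehicle hearts (y axis, CPM per kb of exon, log scale; x axis, genes in falling order). Points are means and lines the SD over 10 libraries; Col4a1 and Col4a2 stand above Col3a1 and the genes after it, whose lines overlap.

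The 3 pairs of type IV genes lie head to head, each pair with its start sites close together on opposite strands. The annotated starts of Col4a1 and Col4a2 overlap by 22 bases, those of Col4a4 and Col4a3 are 71 bases apart, and those of Col4a6 and Col4a5 are 1308 bases apart. The 300-base promoter windows of Col4a1 and Col4a2 (250 bases before the start and 50 after, RefSeq, GRCm38.p6) share 78 bases. They are printed here because this pair gave the highest collagen levels and varied together, and the window of Col3a1 is set beside them as that of the leading fibrillar gene. Each runs 5′ to 3′ on the strand of its gene, and capitals mark the searched motifs on either strand, so that ATTGG is CCAAT and CCGCCC is GGGCGG on the opposite strand.
Col4a1 (chr8:11312777-11313076, minus strand): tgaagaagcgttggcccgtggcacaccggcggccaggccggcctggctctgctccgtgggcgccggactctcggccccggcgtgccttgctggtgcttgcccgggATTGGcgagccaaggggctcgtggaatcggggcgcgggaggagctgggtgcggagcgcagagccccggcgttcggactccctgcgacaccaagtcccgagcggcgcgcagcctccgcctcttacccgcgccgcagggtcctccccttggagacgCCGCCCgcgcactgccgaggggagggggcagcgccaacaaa
Col4a2 (chr8:11312555-11312854, plus strand): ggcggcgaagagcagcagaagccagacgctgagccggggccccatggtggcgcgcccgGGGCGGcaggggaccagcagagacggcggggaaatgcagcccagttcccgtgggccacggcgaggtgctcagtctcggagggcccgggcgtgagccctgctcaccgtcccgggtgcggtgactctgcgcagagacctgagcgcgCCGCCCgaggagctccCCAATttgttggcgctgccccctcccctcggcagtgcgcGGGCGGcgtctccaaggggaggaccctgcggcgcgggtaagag
Col3a1 (chr1:45311288-45311587, plus strand): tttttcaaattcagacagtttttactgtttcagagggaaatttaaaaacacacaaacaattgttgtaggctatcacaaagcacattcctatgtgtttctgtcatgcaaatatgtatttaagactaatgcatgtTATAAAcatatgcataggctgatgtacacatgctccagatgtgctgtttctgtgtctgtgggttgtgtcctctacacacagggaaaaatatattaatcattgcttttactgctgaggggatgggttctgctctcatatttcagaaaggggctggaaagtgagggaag
The windows of Col4a1 and Col4a2 are rich in G and C (74% and 73.7%), and that of Col3a1 is not (37.7%). The 4 motifs were searched on both strands in all 32851 windows, and 35 of the 44 collagens matched the table with 38 windows. CCAAT, the box bound by NF-Y, was in 13 of the 38 collagen windows (34.2%) and in 37.4% of all windows. GGGCGG, the GC box bound by Sp1, was in 23 (60.5%), against 35.7% of all. A GGGCGG site in the 78 bases that the Col4a1 and Col4a2 windows share is the same site in both, so these windows are not independent. TATAAA was in 5 (13.2%), against 13.6% of all. Col3a1 was among them, with its match beginning at -117 from the start site. CACGTG, an E-box also bound by clock factors, was in 0 of 38 against 7.15% of all. A match is a stretch of letters and not a measured binding site.

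Nephrectomy was compared with sham surgery first without the bacterium. No collagen passed an adjusted p of 0.05 in CKD-vehicle against sham-vehicle (edgeR quasi-likelihood test, Benjamini-Hochberg over 24273 genes, as for every adjusted p of a gene below unless another tool is named). Of all genes, 0.00824% passed. At an unadjusted p under 0.05, edgeR gave 1 of the 43 collagens (2.33%, Col2a1) against 4.46% of all genes. DESeq2 and limma voom called none after adjustment. The collagen fold changes lay mostly below 0: 9 were above and 34 below, with a median of -0.18 on the log2 scale against -0.035 over all genes. By class, the median was -0.26 for the fibrillar genes, 0.0073 for type IV, -0.12 for type VI and -0.31 for the FACIT genes.

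The chains of types I, III and V, the fibres of scar, are taken first. Col1a1, which encodes the first chain of type I collagen, had a lowest, median and highest level of 31.3, 83.4 and 168 CPM in sham-vehicle, of 61.8, 88.0 and 102 CPM in CKD-vehicle and of 42.8, 71.7 and 96.4 CPM in CKD-Oxf, and the 5 sham-Oxf libraries held 106, 77.2, 151, 36.4 and 59.8 CPM. The ranges overlapped, with the widest in sham-vehicle, and the log2 fold change of CKD-vehicle over sham-vehicle was -0.19 ± 0.28 (SE; adjusted p = 0.955), with a 95% interval of -0.76 to 0.39. Its partner chain Col1a2 had a lowest, median and highest level of 54.7, 116 and 189 CPM in sham-vehicle, of 66.005, 89.9 and 134 CPM in CKD-vehicle and of 60.7, 85.1 and 107 CPM in CKD-Oxf, and the 5 sham-Oxf libraries held 128, 84.0, 169, 66.038 and 78.0 CPM. Here 5 of 6 CKD-vehicle hearts were below the sham-vehicle median, and the log2 fold change was -0.27 ± 0.22 (SE; adjusted p = 0.955). Col3a1 had a lowest, median and highest level of 72.1, 172 and 361 CPM in sham-vehicle, of 114, 178 and 265 CPM in CKD-vehicle and of 71.5, 128 and 181 CPM in CKD-Oxf, and the 5 sham-Oxf libraries held 105, 89.3, 202, 76.4 and 86.0 CPM. The medians of sham-vehicle and CKD-vehicle lay close together, while 4 of the 5 sham-Oxf hearts were below the sham-vehicle median. The log2 fold change of CKD-vehicle over sham-vehicle was 0.0018 ± 0.26 (SE; adjusted p = 0.999), with a 95% interval of -0.53 to 0.53. Col5a1 had a lowest, median and highest level of 65.2, 82.8 and 119.6 CPM in sham-vehicle, of 71.0, 79.8 and 102 CPM in CKD-vehicle and of 58.1, 86.4 and 118 CPM in CKD-Oxf, and the 5 sham-Oxf libraries held 91.9, 88.3, 109.8, 75.7 and 83.7 CPM. These ranges overlapped with medians close together, and its log2 fold change was -0.12 ± 0.15 (SE; adjusted p = 0.955). Col5a2, which encodes the second chain of type V collagen, had -0.042 ± 0.17 (SE; adjusted p = 0.981). Of the 11 fibrillar genes 9 had values below 0; Col5a3 was above, at 0.32 ± 0.25 (SE; adjusted p = 0.955), and Col3a1 was -0.028 with DESeq2 size factors in place of TMM.

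Among the basement membrane genes, Col4a1 had a lowest, median and highest level of 271, 420.2 and 671 CPM in sham-vehicle, of 341, 458 and 629 CPM in CKD-vehicle and of 230.4, 448 and 554 CPM in CKD-Oxf, and the 5 sham-Oxf libraries held 643, 227, 419, 369.9 and 306 CPM. The groups overlapped throughout. Col4a2 had a lowest, median and highest level of 207, 319.6 and 501 CPM in sham-vehicle, of 285, 379 and 486 CPM in CKD-vehicle and of 201, 369 and 453 CPM in CKD-Oxf, and the 5 sham-Oxf libraries held 492, 196, 312, 294 and 232 CPM. The highest sham-Oxf library of both genes was replicate 1, and the groups again overlapped. The log2 fold change of CKD-vehicle over sham-vehicle was 0.074 ± 0.22 (SE; adjusted p = 0.976) for Col4a1 and 0.13 ± 0.20 (SE; adjusted p = 0.955) for Col4a2, and that of the other 4 type IV genes lay between -0.46 (Col4a6) and 0.10 (Col4a5). Col8a1, a network-forming chain of vessel walls, had a lowest, median and highest level of 10.7, 16.6 and 30.0 CPM in sham-vehicle, of 10.8, 15.1 and 29.6 CPM in CKD-vehicle and of 9.41, 12.0 and 24.2 CPM in CKD-Oxf, and the 5 sham-Oxf libraries held 10.9, 12.4, 14.8, 18.6 and 13.0 CPM. The CKD-vehicle range lay inside that of sham-vehicle, and the log2 fold change was -0.024 ± 0.23 (SE; adjusted p = 0.992). Col18a1, whose C-terminal fragment is endostatin, had a lowest, median and highest level of 12.0, 27.6 and 41.8 CPM in sham-vehicle, of 18.7, 22.3 and 24.5 CPM in CKD-vehicle and of 15.4, 21.9 and 26.5 CPM in CKD-Oxf, and the 5 sham-Oxf libraries held 19.9, 33.2, 30.3, 14.7 and 18.0 CPM. All 6 CKD-vehicle hearts were below the sham-vehicle median, and the log2 fold change was -0.37 ± 0.19 (SE; adjusted p = 0.955). Col15a1, the other multiplexin, had 0.036 ± 0.17 (SE; adjusted p = 0.986). The cartilage gene Col2a1 had very few reads, 52 counts in the 10 sham-vehicle libraries together and 7 in the 6 CKD-vehicle libraries, at most 2 in any of the latter. Its fitted log2 fold change of -2.13 ± 0.77 (SE; adjusted p = 0.955) rests on those counts and bounds nothing.

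The same comparison among the mice given Oxf found 0 collagens and 0% of all genes past the adjusted threshold in CKD-Oxf against sham-Oxf. DESeq2 and limma voom also called 0 after adjustment. At an unadjusted p under 0.05 edgeR gave 2 collagens (4.65%) against 8.23% of all genes. One of them was Col6a6, a type VI chain of muscle, with 32.5, 20.6, 25.6, 21.6 and 22.5 CPM in sham-Oxf and a lowest, median and highest level of 11.3, 17.3 and 24.9 CPM in CKD-Oxf. Of the 7 CKD-Oxf hearts, 5 were below every sham-Oxf heart, and the log2 fold change was -0.52 ± 0.18 (SE; adjusted p = 0.362). The other was the FACIT gene Col19a1, at 1.05 ± 0.49 (SE; adjusted p = 0.573), with 32 counts in the sham-Oxf and 106 in the CKD-Oxf libraries together. Col19a1 had a lowest, median and highest level of 0.0910, 0.304 and 0.484 CPM in sham-vehicle, of 0.0835, 0.215 and 0.314 CPM in CKD-vehicle and of 0.157, 0.361 and 0.519 CPM in CKD-Oxf, and the 5 sham-Oxf libraries held 0, 0.203, 0.0895, 0.216 and 0.312 CPM. Replicate 1 of sham-Oxf held no Col19a1 count, and 4 of 7 CKD-Oxf hearts were above every sham-Oxf heart. Over both gavages, the averaged surgery comparison called 0 collagens and 0% of all genes. DESeq2 and limma voom called none after adjustment. The unadjusted p of this averaged comparison was under 0.05 for 1 collagen with edgeR (2.33%, against 10.6% of all genes). That collagen was again Col6a6, at -0.35 ± 0.12 (SE; adjusted p = 0.313); its level was 17.7, 21.2 and 30.9 CPM (lowest, median, highest) in sham-vehicle and 15.9, 18.8 and 23.8 CPM in CKD-vehicle. This averaged comparison uses the same libraries as the pairwise ones and is not independent of them.

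**Figure D2:**
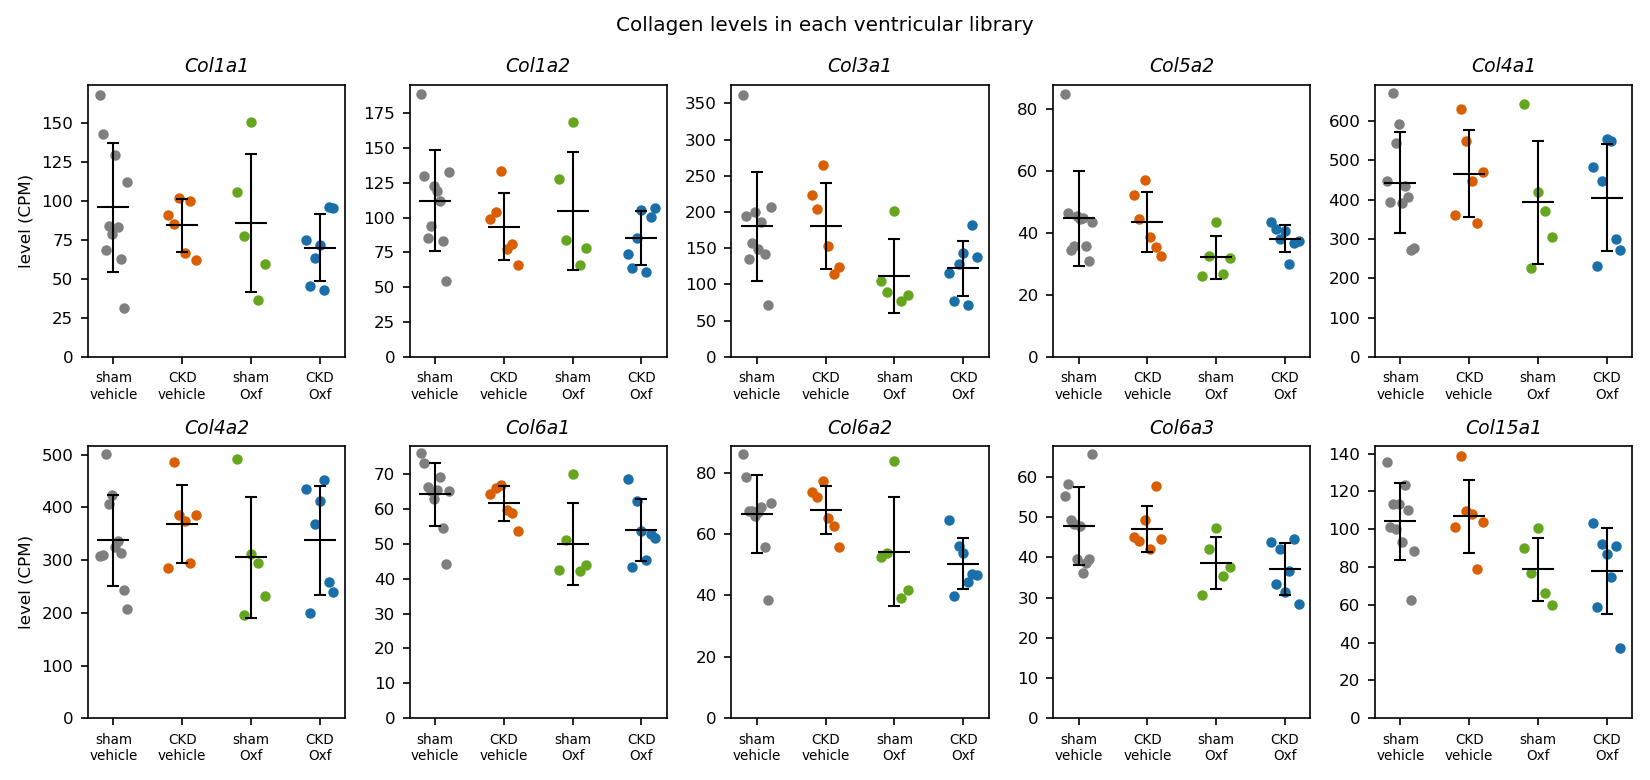
Level of 10 collagen genes in each ventricular library (y axis, CPM; x axis, the 4 groups of 10, 6, 5 and 7 mice). Points are libraries, long bars the mean and short bars 1 SD; the groups overlap for every gene shown, and for Col6a3 and Col15a1 the Oxf libraries lie mostly under the vehicle means.

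Oxf was then compared with vehicle, first within each surgery. These comparisons share their vehicle and Oxf libraries with the surgery comparisons above. In CKD mice, 0 collagens passed the adjusted threshold with edgeR, against 0.0330% of all genes. At an unadjusted p under 0.05 edgeR gave 5 collagens (11.6%), against 13.1% of all genes. Of these, 3 had lower values in CKD-Oxf, where 6.20% of all genes did, and 2 had higher values, where 6.89% did. DESeq2 called 0 collagens after adjustment. Without CKD-Oxf replicate 4, edgeR called 1 collagen, Col2a1 (2.33%, against 3.83% of all genes). Limma voom called 4 after adjustment, Col6a2 and Col15a1 lower and Col2a1 and Col9a3 higher (9.30%, against 14.9% of all genes). The median of the 43 collagens was 0.050 against 0.029 over all genes. In sham mice, 0 collagens and 0% of all genes passed with edgeR in sham-Oxf against sham-vehicle. Its unadjusted p was under 0.05 for 5 collagens (11.6%), all lower, against 12.6% of all genes (5.98% lower). DESeq2 and limma voom both called 0 collagens after adjustment. Counted in either direction, the share of collagens was near that of all genes in both comparisons. In sham mice the share with lower values, 11.6%, was above the 5.98% of all genes.

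**Figure D3:**
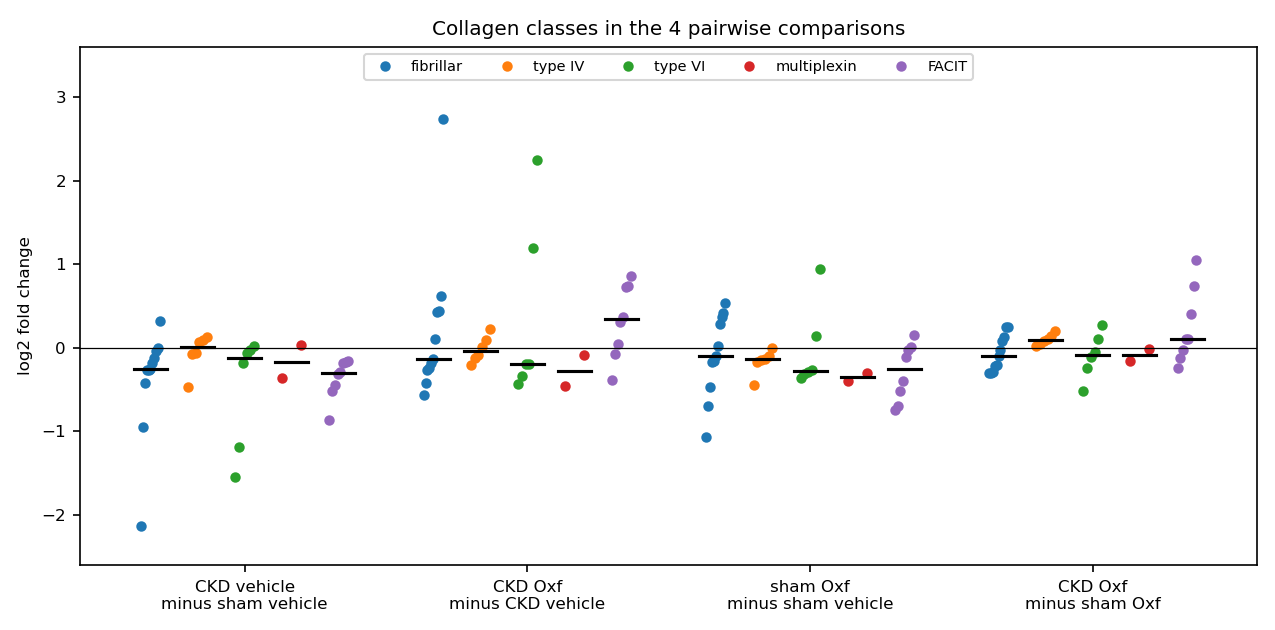
Log2 fold change of each collagen gene (y axis) in the 4 pairwise comparisons (x axis), coloured by class, with a black bar at the class median. The type IV medians are 0.0073, -0.041, -0.14 and 0.093 and FACIT medians -0.31, 0.34, -0.26 and 0.11, from left to right, and the points farthest from 0 are genes with few counts.

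With both surgeries averaged, 0 collagens passed with edgeR, against 2.81% of all genes (681 genes). This comparison uses all 28 libraries, the same as the pairwise Oxf comparisons. At an unadjusted p under 0.05, edgeR gave 8 collagens (18.6%) against 23.0% of all genes. Of these, 7 had lower values with Oxf (16.3%, against 11.5% of all genes) and 1 a higher value (2.33%, against 11.5%). The median over the 43 collagens was -0.027, against 0.0031 over all genes, with 20 above and 23 below 0. The 5 abundant genes with the smallest p had adjusted p-values between 0.0611 and 0.0804: Col6a3, Col15a1, Col6a2, Col3a1 and Col6a1. DESeq2 called these 5 genes, all lower (11.6% of the 43 collagens, against 9.97% of the 21399 genes with an adjusted p). These shares have unlike bases, since the collagens were counted with or without an adjusted p. Limma voom called 7 collagens, the same 5 with Col5a3 (lower) and Col2a1 (higher) (16.3%, against 21.9% of all genes). With edgeR on genes with at least 10 counts in every library, 5 of 30 collagens passed (16.7%, against 10.1% of all genes). With edgeR the count depended on single libraries. It was 6 without CKD-Oxf replicate 4 (14.0%, against 13.9% of all genes), 5 without sham-Oxf replicate 3 (11.6%, against 3.69% of all genes) and 4 without sham-vehicle replicate 9 (9.30%, against 3.54% of all genes) or CKD-vehicle replicate 5 (9.30%, against 7.83% of all genes). It was 1, Col2a1, without sham-vehicle replicate 6 (2.38%, against 4.82% of all genes) or sham-Oxf replicate 1 (2.33%, against 3.50% of all genes), and 0 in the rest of the 28 such fits. In these fits the collagens' share lay above that of all genes in some and below it in others.

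The 3 abundant chains of type VI collagen were all among these genes. Col6a1 (chromosome 10, 76708792 to 76726168, minus strand) and Col6a2 (chromosome 10, 76595762 to 76623630, minus strand) lie near each other and encode the short chains of the trimer, and Col6a3 (chromosome 1, 90765923 to 90843971, minus strand) encodes its long chain. Col6a3 had a lowest, median and highest level of 36.2, 48.1 and 65.8 CPM in sham-vehicle, of 42.2, 44.8 and 57.7 CPM in CKD-vehicle and of 28.5, 36.7 and 44.6 CPM in CKD-Oxf, and the 5 sham-Oxf libraries held 30.6, 42.1, 47.2, 35.3 and 37.6 CPM. All 7 CKD-Oxf hearts were below the CKD-vehicle median and 5 below the lowest CKD-vehicle heart, and all 5 sham-Oxf hearts were below the sham-vehicle median; the ranges still overlapped. The log2 fold change with Oxf was -0.34 ± 0.14 (SE; adjusted p = 0.315) in CKD mice, -0.31 ± 0.14 (SE; adjusted p = 0.349) in sham mice and -0.33 ± 0.10 (SE; adjusted p = 0.0611) averaged, which is 0.798 times the vehicle level. Col6a2 had a lowest, median and highest level of 38.6, 67.5 and 86.2 CPM in sham-vehicle, of 55.9, 68.8 and 77.1 CPM in CKD-vehicle and of 39.8, 47.1 and 64.5 CPM in CKD-Oxf, and the 5 sham-Oxf libraries held 52.7, 53.9, 83.9, 39.2 and 41.9 CPM. In CKD mice 5 of the 7 Oxf hearts were below every vehicle heart, while sham-Oxf replicate 3 was near the top of all libraries. The log2 fold change was -0.43 ± 0.16 (SE; adjusted p = 0.283) in CKD, -0.29 ± 0.16 (SE; adjusted p = 0.443) in sham and -0.36 ± 0.11 (SE; adjusted p = 0.0665) averaged. Col6a1 had a lowest, median and highest level of 44.1, 65.2 and 76.1 CPM in sham-vehicle, of 53.7, 62.0 and 66.7 CPM in CKD-vehicle and of 43.2, 52.7 and 68.5 CPM in CKD-Oxf, and the 5 sham-Oxf libraries held 42.5, 51.1, 69.987, 42.3 and 43.9 CPM. The sham-Oxf libraries again split, with replicate 3 high and 3 of 5 below the lowest sham-vehicle heart. Its log2 fold change was -0.19 ± 0.13 (SE; adjusted p = 0.531) in CKD, -0.36 ± 0.13 (SE; adjusted p = 0.261) in sham and -0.28 ± 0.092 (SE; adjusted p = 0.0804) averaged. Of the other 3 type VI genes, Col6a6 had -0.19 in CKD and 0.14 in sham, and the scarce Col6a5 and Col6a4, at 1566 and 155 counts in all libraries, had averaged 95% intervals of -0.64 to 1.56 and -0.092 to 3.29.

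Col15a1, the multiplexin of the zone around capillaries and muscle basement membranes, had a lowest, median and highest level of 62.5, 106 and 136 CPM in sham-vehicle, of 79.0, 106 and 139 CPM in CKD-vehicle and of 37.4, 87.1 and 103 CPM in CKD-Oxf, and the 5 sham-Oxf libraries held 90.3, 76.7, 101, 66.1 and 60.1 CPM. All 7 CKD-Oxf hearts were below the CKD-vehicle median, 3 of them below its lowest heart, and all 5 sham-Oxf hearts were below the sham-vehicle median. The log2 fold change was -0.46 ± 0.19 (SE; adjusted p = 0.313) in CKD mice, -0.40 ± 0.19 (SE; adjusted p = 0.367) in sham mice and -0.43 ± 0.13 (SE; adjusted p = 0.0632) averaged, or 0.743 times the vehicle level. Col18a1 had -0.091 ± 0.20 (SE; adjusted p = 0.884), -0.30 ± 0.20 (SE; adjusted p = 0.563) and -0.19 ± 0.14 (SE; adjusted p = 0.440) in the same order.

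Col3a1, whose level in each group is given above, had a log2 fold change of -0.56 ± 0.28 (SE; adjusted p = 0.387) in CKD, -0.69 ± 0.28 (SE; adjusted p = 0.312) in sham and -0.63 ± 0.20 (SE; adjusted p = 0.0690) averaged, or 0.647 times the vehicle level. The highest vehicle heart, sham-vehicle replicate 1 at 361 CPM, and the highest sham-Oxf heart, replicate 3 at 202 CPM, both stood apart from their groups. The averaged value was -0.54 without the first (adjusted p = 0.0875) and -0.80 without the second (adjusted p = 0.0328). Its neighbour Col5a2 (chromosome 1, 45374321 to 45503282, minus strand) had a lowest, median and highest level of 31.0, 44.1 and 85.1 CPM in sham-vehicle, of 32.5, 41.6 and 57.0 CPM in CKD-vehicle and of 30.0, 38.1 and 43.5 CPM in CKD-Oxf, and the 5 sham-Oxf libraries held 26.1, 32.7, 43.5, 26.9 and 31.9 CPM. The 5 sham-Oxf hearts were all below the sham-vehicle median, and 6 of 7 CKD-Oxf hearts below the CKD-vehicle median. Its log2 fold change was -0.18 ± 0.18 (SE; adjusted p = 0.676) in CKD, -0.47 ± 0.18 (SE; adjusted p = 0.281) in sham and -0.33 ± 0.13 (SE; adjusted p = 0.124) averaged. The type I chains had values near the size of their errors, -0.21 ± 0.21 (SE; adjusted p = 0.587) for Col1a1 and -0.12 ± 0.16 (SE; adjusted p = 0.728) for Col1a2 averaged, and their 95% intervals of -0.64 to 0.22 and -0.45 to 0.22 span both directions. Col5a1 had 0.067 ± 0.11 (SE; adjusted p = 0.774) and Col5a3 -0.21 ± 0.19 (SE; adjusted p = 0.551). The type IV pair had -0.19 ± 0.17 (SE; adjusted p = 0.550) for Col4a1 and -0.14 ± 0.15 (SE; adjusted p = 0.649) for Col4a2. Without sham-Oxf replicate 1 these averaged values were -0.31 (adjusted p = 0.232) and -0.26 (adjusted p = 0.270). In sham mice alone they were -0.17 ± 0.24 (SE; adjusted p = 0.812) and -0.15 ± 0.22 (SE; adjusted p = 0.828) with that library, and -0.42 (adjusted p = 0.583) and -0.38 (adjusted p = 0.580) without it. Col8a1 had -0.27 ± 0.18 (SE; adjusted p = 0.371) averaged. Col14a1, a FACIT gene whose product binds to fibril surfaces, had -0.45 ± 0.21 (SE; adjusted p = 0.194).

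The scarce Col2a1 and Col9a3 had higher values with Oxf in CKD mice. Col2a1 had 7 counts in CKD-vehicle, 62 in CKD-Oxf, 52 in sham-vehicle and 35 in sham-Oxf, over 6, 7, 10 and 5 libraries, with 0 counts in 2, 1, 1 and 1 of them. Col2a1 had a lowest, median and highest level of 0, 0.135 and 0.274 CPM in sham-vehicle, of 0, 0.0312 and 0.0603 CPM in CKD-vehicle and of 0, 0.207 and 0.339 CPM in CKD-Oxf, and the 5 sham-Oxf libraries held 0, 0.135, 0.119, 0.297 and 0.364 CPM. In CKD mice 6 of the 7 Oxf hearts were above every vehicle heart, the log2 fold change was 2.73 ± 0.79 (SE; adjusted p = 0.199), and averaged it was 1.63 ± 0.51 (SE; adjusted p = 0.0657). Col9a3, a FACIT chain of cartilage, had a lowest, median and highest level of 0.477, 0.955 and 1.15 CPM in sham-vehicle, of 0.250, 0.600 and 0.979 CPM in CKD-vehicle and of 0.733, 1.06 and 1.66 CPM in CKD-Oxf, and the 5 sham-Oxf libraries held 0, 1.08, 0.686, 0.351 and 1.22 CPM. In CKD mice 4 of the 7 Oxf hearts were above every vehicle heart, and the log2 fold change was 0.86 ± 0.42 (SE; adjusted p = 0.379). Of its exon bases 6.07% overlap Tcfl5 on the other strand, the largest such overlap among the 44 genes, and the strand setting of the counting is not given in the sources used here. The valve and cartilage markers Acan, Chad, Sox9, Hapln1, Cnmd, Matn1 and Matn3 summed to 5.28 to 18.7 CPM over the libraries, and 0 of the 5 tested passed in any of the 7 comparisons; their part in these values was not tested. Whether the Oxf difference depended on surgery was tested as an interaction: 0 collagens and 0% of all genes passed. Its unadjusted p was under 0.05 for 3 collagens with edgeR (6.98%, against 3.55% of all genes). The 3 were Col19a1, at 1.49 ± 0.65 (SE; adjusted p = 1.00), Col2a1, at 2.20 ± 1.03 (SE; adjusted p = 1.00), and Col9a3, at 1.26 ± 0.60 (SE; adjusted p = 1.00), with 312, 156 and 989 counts in all libraries together. All 3 had 0 counts in sham-Oxf replicate 1. Without that library, the log2 fold change of sham-Oxf over sham-vehicle was -0.49 for Col19a1, 0.80 for Col2a1 and -0.10 for Col9a3. For Col3a1, Col6a3 and Col15a1 the interaction was 0.13 ± 0.39 (SE; adjusted p = 1.00), -0.030 ± 0.20 (SE; adjusted p = 1.00) and -0.053 ± 0.26 (SE; adjusted p = 1.00).

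**Figure D4:**
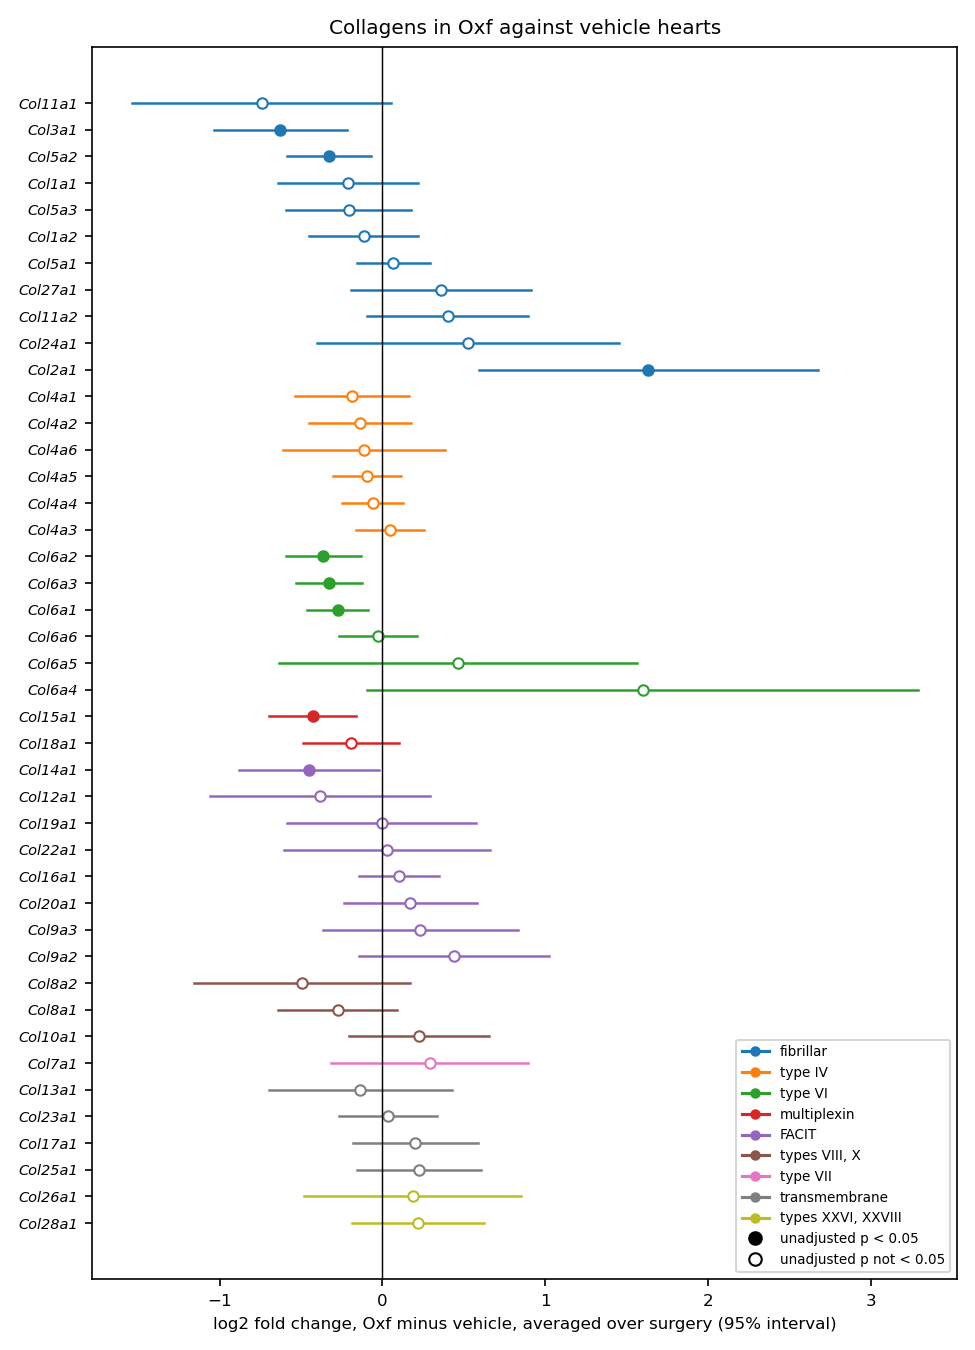
Log2 fold change of the 43 tested collagen genes with Oxf against vehicle, averaged over surgery (x axis), by gene and class (y axis). Points are estimates of the fit, lines 95% intervals and filled points those with an unadjusted p under 0.05; Col3a1, Col5a2, the 3 main type VI genes, Col15a1 and Col14a1 are filled on the left of 0 and Col2a1 on the right.

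The genes that modify, read and accompany collagens gave 0 passes in each of the 7 comparisons. The lists were 30 processing genes (prolyl and lysyl hydroxylases, chaperones, propeptide proteases and lysyl oxidases), 12 receptors and 10 basement membrane partners. In the averaged Oxf comparison, 5 processing genes had an unadjusted p under 0.05 with lower values (16.7%, against 11.5% of all genes) and 3 with higher values (10.0%, against 11.5%). Serpinh1, the collagen chaperone HSP47, had -0.58 ± 0.19 (SE; adjusted p = 0.0764), P4hb, a subunit of prolyl 4-hydroxylase, -0.49 ± 0.17 (SE; adjusted p = 0.0824), and the catalytic subunit P4ha1 -0.42 ± 0.15 (SE; adjusted p = 0.09997). Of the receptors, Itgb1 had -0.35 ± 0.15 (SE; adjusted p = 0.156) and Itga1, which pairs with it in a type IV receptor, -0.22 ± 0.10 (SE; adjusted p = 0.191). Of the partners, the laminin chain gene Lama5 had 0.54 ± 0.19 (SE; adjusted p = 0.101), Hspg2, which encodes perlecan, 0.28 ± 0.11 (SE; adjusted p = 0.136), and the collagen-binding Sparc -0.34 ± 0.15 (SE; adjusted p = 0.165), so the partners lay on both sides of 0. In CKD-vehicle against sham-vehicle, P4ha1 had -0.53 ± 0.20 (SE; adjusted p = 0.955).

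Fibroblast markers had lower values with Oxf averaged over surgery, where the median log2 fold change over all genes was 0.0031. In the averaged Oxf comparison 10 of 10 had values below 0, and 2 fell past the threshold, the small proteoglycans of fibrils Ogn, at -0.58 ± 0.15 (SE; adjusted p = 0.0421), and Lum, at -0.85 ± 0.23 (SE; adjusted p = 0.0435), where 1.54% of all genes passed as lower; Dcn had -0.66 ± 0.20 (SE; adjusted p = 0.0632). The summed level of the 10 markers was 784 to 2528 CPM (median 1179) in sham hearts with vehicle and 701 to 1550 (849.5) with Oxf, and 1040 to 2178 (1409) in CKD hearts with vehicle and 689 to 2209 (898) with Oxf, and none was at 0 in any library. The part of these markers in the collagen values was not tested. The other cell type lists gave 1 pass in this comparison, the cardiomyocyte gene Tnni3, at -0.72 ± 0.19 (SE; adjusted p = 0.0447); 0 of 7 endothelial, 6 mural, 5 Schwann cell, 5 atrial, 5 mesothelial and 5 blood markers passed. Of the 8 tested markers of activated fibroblasts 0 passed, and Postn had -0.63 ± 0.20 (SE; adjusted p = 0.0651). Genes of the circadian clock changed. Of all genes, 2.81% passed in this averaged comparison in either direction, so at most that share passed as higher. As lower, 1.54% passed. Of the list around Dbp and Per1, 7 of 10 genes rose past the threshold. Of the list around Arntl and Npas2, 4 of 5 fell past it. The clock score, the difference of the mean log2 CPM of these lists, was 2.27 ± 1.02 with vehicle (SD, n = 10) and 3.86 ± 0.440 with Oxf (n = 5) in sham hearts, and 0.828 ± 0.986 with vehicle (n = 6) and 3.27 ± 0.521 with Oxf (n = 7) in CKD hearts. With this score in the fit, 0 collagens passed and the averaged Oxf log2 fold changes were 0.048 for Col3a1, 0.061 for Col6a2, 0.026 for Col6a1 and 0.0096 for Col15a1, all on the other side of 0, while Col6a3 kept -0.30 (adjusted p = 0.822). With the log2 share of 7SL RNA in the fit, 1 collagen passed (2.33%, against 0.544% of all genes), Col6a3, at -0.45 (adjusted p = 0.0266). The clock score and the mean 7SL share both differ between the groups, and their part and that of the gavage cannot be told apart.

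The expression of partner chains was compared across mice after the mean of each group was subtracted from log2 CPM, which removes the differences between group means. Values are Pearson's r and Spearman's rho over 28 libraries, with p from 100000 permutations within groups, adjusted over 14 pairs. Col4a1 and Col4a2 had the highest values of the 14, with r = 0.98 and rho = 0.96, with adjusted permutation p = 2.8e-05 and 4.67e-05. Col6a1 and Col6a2 had r = 0.95 and rho = 0.93, with adjusted permutation p = 2.8e-05 and 4.67e-05, and the type I chains Col1a1 and Col1a2 had r = 0.91 and rho = 0.89, with adjusted permutation p = 2.8e-05 and 4.67e-05. Before adjustment each of these p-values was 1e-05, the smallest the permutations can give. Col1a1 with Col3a1 had r = 0.81 and rho = 0.75, with adjusted permutation p = 2.8e-05 and 7e-05, Col3a1 with Col5a2 r = 0.80 and rho = 0.69, with adjusted permutation p = 2.8e-05 and 0.000756, and Col4a1 with Col15a1 r = 0.64 and rho = 0.63, with adjusted permutation p = 0.00149 and 0.00224. Without the 2 libraries farthest on the first gene, r was 0.97, 0.90, 0.87, 0.75, 0.73 and 0.62 in the same order. Within the 3 groups of at least 6 mice, r of Col4a1 and Col4a2 was 0.97 in sham-vehicle, 0.96 in CKD-vehicle and 0.99 in CKD-Oxf, and that of Col1a1 and Col1a2 0.94, 0.75 and 0.87; for Col3a1 and Col5a2 it was 0.89, 0.96 and 0.32.

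Other pairs that share a promoter region or a trimer had lower values. The head-to-head pair Col4a3 and Col4a4 had r = 0.71 and rho = 0.55, with adjusted permutation p = 0.00868 and 0.00675. Its r was 0.15 without the 2 libraries farthest on Col4a3 and 0.85 without sham-Oxf replicate 1. Within groups it was 0.95 in sham-vehicle, 0.15 in CKD-vehicle and 0.84 in CKD-Oxf. Col4a5 and Col4a6, also head to head, had r = -0.22 and rho = -0.35, with adjusted permutation p = 0.360 and 0.124. Col6a2 and its long partner Col6a3 had r = 0.49 and rho = 0.50, with adjusted permutation p = 0.0235 and 0.0185, and 0.38 without the 2 farthest. Between the fibrillar and the basement membrane class, Col1a1 and Col4a1 had r = 0.10 and rho = -0.0060, with adjusted permutation p = 0.655 and 0.979. Of the other 4 pairs, Col5a1 with Col5a3 passed for both measures (r = 0.64 and rho = 0.62, with adjusted permutation p = 0.00168 and 0.00316), and Col5a1 with Col5a2, Col4a4 with Col4a5 and Col8a1 with Col8a2 did not pass for both.

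**Figure D5:**
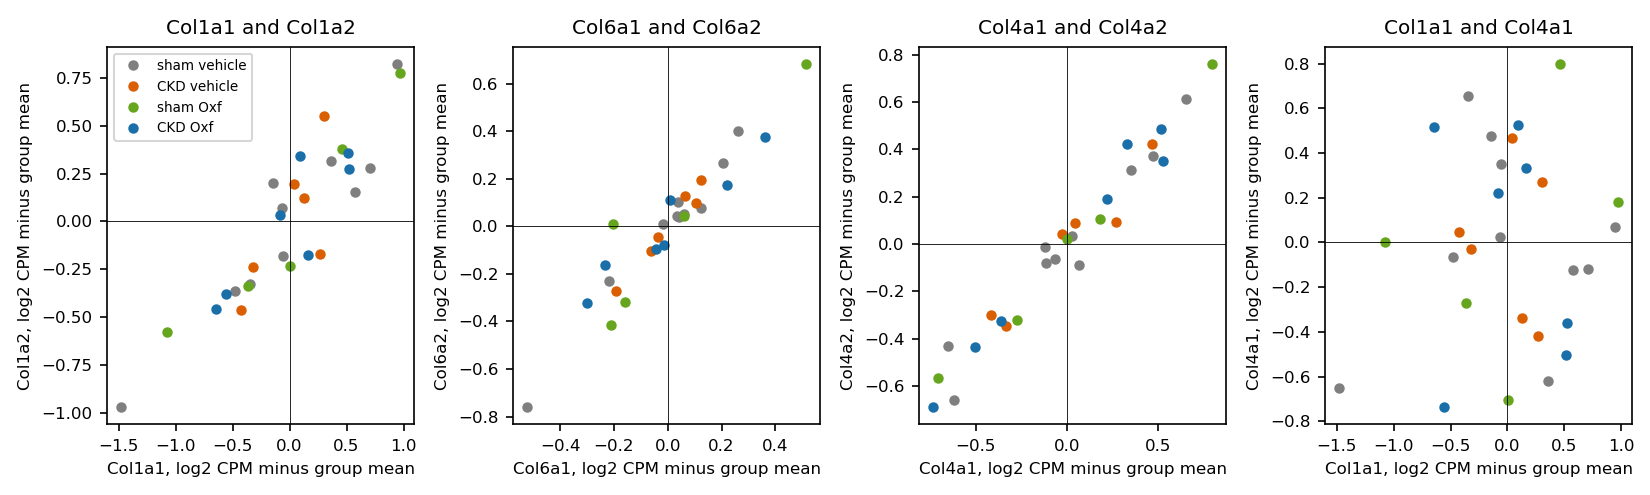
Log2 CPM minus the group mean of the second gene (y axis) against that of the first gene (x axis) in 28 libraries, coloured by group, for 4 pairs of collagen genes. Col1a1 with Col1a2, Col6a1 with Col6a2 and Col4a1 with Col4a2 lie along a line (r = 0.91, 0.95 and 0.98), and Col1a1 with Col4a1 does not (r = 0.10).

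The 43 genes were also set against 4 measures of each library in the same way, as were all 24273 tested genes, and p was adjusted over the 97092 relations together. With the fibroblast marker score, the mean log2 CPM of the 10 markers, 9 collagens passed with a positive relation for both r and rho (20.9%, against 8.84% of all genes) and 3 with a negative one (6.98%, against 10.2% of all genes). Col14a1 led with r = 0.87, rho = 0.87, adjusted permutation p = 0.00038 and 0.000449, r = 0.82 without the 2 farthest libraries, then Col5a2 with r = 0.82, rho = 0.79, adjusted permutation p = 0.00038 and 0.000449, r = 0.81 without the 2 farthest libraries. Col3a1 (r = 0.78, rho = 0.76, adjusted permutation p = 0.00038 and 0.000613, r = 0.73 without the 2 farthest libraries) and Col1a2 (r = 0.78, rho = 0.74, adjusted permutation p = 0.00038 and 0.000613, r = 0.72 without the 2 farthest libraries) followed. Within CKD-Oxf alone r of Col3a1 was 0.20, against 0.86 in sham-vehicle and 0.97 in CKD-vehicle; whether the groups differ in it was not tested. The type IV pair passed with the endothelial marker score: Col4a2 had r = 0.82, rho = 0.83, adjusted permutation p = 0.000545 and 0.000613, r = 0.81 without the 2 farthest libraries, and Col4a1 r = 0.79, rho = 0.79, adjusted permutation p = 0.000847 and 0.000903, r = 0.78 without the 2 farthest libraries. They were the 2 collagens with a positive relation (4.65%, against 12.1% of all genes), and 10 had a negative one (23.3%, against 16.8% of all genes), among which Col4a6 had r = -0.78, rho = -0.79, adjusted permutation p = 0.000545 and 0.000613, r = -0.79 without the 2 farthest libraries.

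With the clock score, 6 collagens had a negative relation within groups (14.0%, against 1.83% of all genes) and 1 a positive one (2.33%, against 4.94% of all genes). Col6a2 had r = -0.61, rho = -0.68, adjusted permutation p = 0.00319 and 0.00250, r = -0.44 without the 2 farthest libraries, and Col6a1 r = -0.55, rho = -0.62, adjusted permutation p = 0.00832 and 0.00636, r = -0.38 without the 2 farthest libraries. Within the 3 groups of at least 6 mice r of Col6a2 was -0.79 in sham-vehicle, -0.85 in CKD-vehicle and -0.75 in CKD-Oxf. The genes Col5a2, Col4a1, Col15a1 and Col4a2 had r between -0.55 and -0.50. The positive one was the epithelial anchor gene Col17a1, with r = 0.61, rho = 0.67, adjusted permutation p = 0.00648 and 0.00581, r = 0.68 without the 2 farthest libraries. The clock score itself had r = -0.46 and rho = -0.46 with the fibroblast marker score, with adjusted permutation p = 0.0989 and 0.0934. Without the 2 farthest libraries that r was -0.25. Within sham-vehicle the clock score was 0.836 in mouse 901, 3.97 in mouse 909 and 3.53 in mouse 910. The part of mouse order in these relations was not tested. The log2 share of 7SL RNA had 14 negative relations (32.6%, against 23.9% of all genes) and 3 positive ones (6.98%, against 13.5% of all genes). The lowest was that of the scarce fibrillar gene Col24a1, with r = -0.82, rho = -0.84, adjusted permutation p = 0.00038 and 0.000449, r = -0.83 without the 2 farthest libraries, and Col27a1 had r = -0.74, rho = -0.72, adjusted permutation p = 0.00038 and 0.00162, r = -0.69 without the 2 farthest libraries. The positive ones were Col4a5 (r = 0.62, rho = 0.62, adjusted permutation p = 0.00492 and 0.00677, r = 0.55 without the 2 farthest libraries), Col4a1 (r = 0.60, rho = 0.65, adjusted permutation p = 0.0104 and 0.00537, r = 0.63 without the 2 farthest libraries) and Col4a2 (r = 0.56). All values share the scaling of the library, so a gene and a measure in the same library are not wholly separate.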

How the data were processed

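The deposited file holds raw read counts per gene for the 28 ventricular libraries, from total RNA. Per the submitters' processing notes, the authors used FastQC 0.11.7, MultiQC 1.9, STAR 2.6.1d, Subread with featureCounts 1.6.3, and mm10; the annotation and strand setting are not given in the sources used here. Group labels came from the sample records, and 0 columns lacked a sample. Of the 45513 genes 1532 had no count, and filterByExpr (minimum count 10) kept 24273. One edgeR 4.0.16 quasi-likelihood fit (R 4.3.3, robust, TMM factors, 4 group means) gave 7 contrasts, adjusted by Benjamini-Hochberg, with a threshold of 0.05. It was checked on simulated data. Alternatives were DESeq2 1.42.0, limma 3.58.1 voom with sample weights, other scaling, filters and subsets, covariates, and each library left out. Correlations used log2 CPM (prior count 2), centred within groups, and 100000 permutations (scipy 1.17.1), run on all tested genes for the library measures. Exon lengths and positions came from GENCODE M21 by identifier, promoters from RefSeq. Group levels and tests were given for 10 fixed collagens and for the 3 with the smallest unadjusted p under 0.05 in each contrast, and other collagens were named after their values were seen. Members and lists were chosen with earlier results of these data known.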

Additional observations from a re-analysis of the deposited data

Results flagged for a closer look

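Single libraries stood far from the rest of their group for 6 of 80 group checks over 20 measures. For independent normal values about 4 would be flagged at 1 in 20. The checks reuse the same libraries, and genes such as Col3a1 and Col5a2 varied together, so that number is only a rough guide. Each gap is given as a share of the range of the group. For Col5a2, sham-vehicle replicate 1 had 85.1 CPM and the next library 46.5 (gap share 0.713). For Col3a1, the same library had 361 CPM and the next 206.4 (0.535), and sham-Oxf replicate 3 had 201.8 CPM against 104.6 in the next (0.776). The collagen share of counts was 0.228% in CKD-Oxf replicate 6 and 0.178% in the next library (0.595). A count was found for 42 of the 44 collagens in sham-vehicle replicate 5, against at least 43 in the others of its group (0.5), and for 31 in sham-Oxf replicate 1, against at least 43 (0.923).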

How the results depend on the processing

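No paired analysis was possible because replicate numbers were given in record order and the labels number each mouse once. In the 5 comparisons other than the averaged Oxf and the CKD-Oxf against CKD-vehicle ones, 0 collagens passed under each alternative run. For CKD-Oxf against CKD-vehicle the count was 4 with limma voom and 0 to 1 with a library left out. For the averaged Oxf comparison, where 681 genes passed in all, it was 5 with DESeq2 (2133 genes), 7 with limma voom (5307), 5 among the 30 collagens with at least 10 counts in every library (1422), 1 with the 7SL share (132), and 0 to 6 with a library left out (109 to 3362). With the clock score as covariate, values of 29 of the 43 collagens crossed 0 in the averaged Oxf comparison, 25 in CKD-Oxf against CKD-vehicle, 17 in sham-Oxf against sham-vehicle, 11 in CKD-vehicle against sham-vehicle and 9 in the interaction, and with the 7SL share 13, 9, 11, 4 and 4, and the cause was not tested. Among those with the clock score, in the averaged Oxf comparison were 0.0096 for Col15a1, 0.35 for Col1a1, 0.40 for Col1a2, 0.048 for Col3a1, 0.44 for Col4a1, 0.37 for Col4a2, 0.026 for Col6a1, 0.27 for Col8a1, 0.098 for Col18a1, 0.16 for Col5a2, 0.28 for Col5a3, 0.061 for Col6a2 and 0.060 for Col14a1. In CKD-Oxf against CKD-vehicle were 0.40 for Col5a2, 0.071 for Col6a2, 0.072 for Col15a1, 0.39 for Col1a1, 0.49 for Col1a2, 0.25 for Col3a1, 0.55 for Col4a1, 0.48 for Col4a2, 0.17 for Col6a1, 0.43 for Col8a1 and 0.25 for Col18a1. In sham-Oxf against sham-vehicle were 0.052 for Col6a2, 0.32 for Col4a1 and 0.25 for Col4a2. In CKD-vehicle against sham-vehicle were -0.45 for Col3a1, -0.36 for Col4a1, -0.23 for Col4a2 and -0.27 for Col15a1. Among those with the 7SL share were Col4a1 at 0.062, Col4a2 at 0.068 and Col5a1 at -0.074 (averaged Oxf), Col4a2 at 0.021 (CKD-Oxf against CKD-vehicle), and Col4a1 at -0.043 and Col15a1 at -0.016 (CKD-vehicle against sham-vehicle). Col3a1 in the last comparison was -0.028 with DESeq2 and with its size factors, and -0.038 with at least 10 counts in every library. With a library left out, it lay between -0.18 and 0.17, Col4a1 between -0.055 and 0.15, Col8a1 between -0.29 and 0.095 and Col15a1 between -0.085 and 0.11, and in CKD-Oxf against CKD-vehicle Col1a2 between -0.22 and 0.0083 and Col8a1 between -0.38 and 0.011. Another scaling moved the median of all genes by at most 0.024 in size (-0.024, log2). Depth limits the genes with few counts, such as Col2a1 with 156 in all.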
